A study of Mus musculus with 7 samples.

Results

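Interferon-stimulated genes are the genes that cells switch on when interferon binds its receptor. They are followed here as a list of 45 mouse genes, chosen by gene name, in haematopoietic stem cells of the fetal liver. Of the 45 genes, 40 had a probe set whose annotation named that gene alone, out of 12393 such genes on the array. Where a gene had several such probe sets, the one of highest average log2 level on the 7 arrays stood for it. Ddx58, Ifi44, Ifi27 and Xaf1 had no such probe set in the annotation used here, and Isg15 shared its only one with Gm9706.

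The study measured RNA on 1 Affymetrix array per sample at embryonic day 14.5 and asked how the stem cell transcriptome differs when the precursor of the general transcription factor TFIIA, which the protease Taspase1 normally cuts, cannot be cleaved. The 3 TFIIAα-βnc/nc samples (TFIIA nc/nc) came from embryos carrying the non-cleavable form of TFIIAα-β on both alleles, and the 4 wild-type samples from embryos without it. Parents in the timed matings were TFIIAα-βnc/+, so every cell of the TFIIA nc/nc embryo carries the allele and not the blood lineage alone. TFIIA nc/nc replicates 1, 2 and 3 pooled 2, 2 and 4 embryos, and wild-type replicates 1 to 4 held 1, 1, 4 and 3 embryos. In both groups the gate took liver cells that lacked the antigens of a lineage cocktail and carried c-Kit, Sca-1 and CD150 (HSC), and each sample passed it in 2 rounds. No agent was given, the strain is not given in the sources used here, and p-values measure the spread between these samples, which the labels call biological replicates.

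Type I interferons bind a receptor made of IFNAR1 and IFNAR2, and interferon gamma a receptor that contains IFNGR1. Receptor-bound kinases then phosphorylate STAT proteins. A complex that contains STAT2 and IRF9 binds the interferon-stimulated response element (ISRE), and the response to interferon gamma acts largely through the gamma-activated site (GAS). Blood stem cells are known to hold part of this programme at a basal level without infection, and interferon exposure is known to affect their cycling and maintenance.

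Promoters of the members are shown because these are the sequences through which the pathway acts. They are RefSeq promoters of build GRCm38.p6, 250 bases before to 50 bases after the transcript start, and 34 of the 40 measured genes had one. Both strands were searched for the ISRE core, which is GAAA, any 2 bases and GAAA, and for the GAS core TTCNNNGAA, which reads the same on either strand. The ISRE core was found for 15 of the 34 genes (44.1%) and for 3.84% of the 9887 genes on the array with a promoter. The GAS core was found for 14 of the 34 (41.2%) and for 8.45% of the 9887. Bst2, Eif2ak2, Ifitm3, Igtp and Oas1a held both. The 6 promoters printed are those of Rsad2, Irf1 and Psmb8 and of the 3 other members with the smallest p that held a match, each 5′ to 3′ on the strand of the gene, with the matches in capitals. In Ifitm3 the GAS-core match overlaps the second ISRE-core match, so they run together. A match describes these letters and does not show binding.
Rsad2: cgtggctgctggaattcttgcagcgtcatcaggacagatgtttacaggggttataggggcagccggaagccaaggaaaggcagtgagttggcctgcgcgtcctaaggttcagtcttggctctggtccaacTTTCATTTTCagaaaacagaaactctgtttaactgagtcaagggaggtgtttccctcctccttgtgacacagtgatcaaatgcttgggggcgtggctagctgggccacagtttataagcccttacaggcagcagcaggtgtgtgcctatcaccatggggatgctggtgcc
Irf1: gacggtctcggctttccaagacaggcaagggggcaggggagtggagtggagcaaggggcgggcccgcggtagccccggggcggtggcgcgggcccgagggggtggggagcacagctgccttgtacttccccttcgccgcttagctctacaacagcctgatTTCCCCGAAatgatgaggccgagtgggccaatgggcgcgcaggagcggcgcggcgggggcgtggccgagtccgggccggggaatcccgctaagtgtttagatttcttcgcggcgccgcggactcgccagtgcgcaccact
Psmb8: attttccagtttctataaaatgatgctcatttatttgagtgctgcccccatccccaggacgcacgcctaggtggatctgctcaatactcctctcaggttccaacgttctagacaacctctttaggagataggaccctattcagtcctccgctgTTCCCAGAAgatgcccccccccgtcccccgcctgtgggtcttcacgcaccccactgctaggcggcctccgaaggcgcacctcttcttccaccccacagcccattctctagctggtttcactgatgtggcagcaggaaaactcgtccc
Ifitm3: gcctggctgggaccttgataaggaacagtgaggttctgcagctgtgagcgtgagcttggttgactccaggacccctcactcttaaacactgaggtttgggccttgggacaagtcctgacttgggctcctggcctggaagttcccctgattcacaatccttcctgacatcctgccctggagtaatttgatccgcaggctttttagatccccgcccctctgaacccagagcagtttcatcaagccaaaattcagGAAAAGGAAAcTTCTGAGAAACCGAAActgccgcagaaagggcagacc
Gbp2: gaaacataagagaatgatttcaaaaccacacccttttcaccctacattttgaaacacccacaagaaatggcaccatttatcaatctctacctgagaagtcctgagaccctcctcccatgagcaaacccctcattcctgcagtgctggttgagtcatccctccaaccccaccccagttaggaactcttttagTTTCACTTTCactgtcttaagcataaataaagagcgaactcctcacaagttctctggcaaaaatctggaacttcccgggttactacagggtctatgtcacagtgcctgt
Ifih1: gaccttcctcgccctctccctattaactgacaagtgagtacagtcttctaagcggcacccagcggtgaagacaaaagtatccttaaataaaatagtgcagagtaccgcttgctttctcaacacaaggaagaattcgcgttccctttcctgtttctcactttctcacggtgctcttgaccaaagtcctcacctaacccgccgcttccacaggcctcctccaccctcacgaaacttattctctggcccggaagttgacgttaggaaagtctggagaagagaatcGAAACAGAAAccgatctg

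The start is base 1 and the base before it −1. Rsad2 (chr12:26456403-26456702, minus strand) holds an ISRE-core match from base −120, Gbp2 (chr3:142620413-142620712, plus strand) from −59, and Ifih1 (chr2:62646206-62646505, minus strand) from 33. Irf1 (chr11:53769764-53770063, plus strand) and Psmb8 (chr17:34197945-34198244, plus strand) hold GAS-core matches from −90 and −97 and no ISRE core in this window. Ifitm3 (chr7:141010695-141010994, minus strand) holds ISRE-core matches from 3 and 20, just inside the transcript. With only the 150 bases before the start, 11 members held the ISRE core (32.4%, against 1.68% of all genes with a promoter) and 6 the GAS core (17.6%, against 4.15%).

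**Figure D1:**
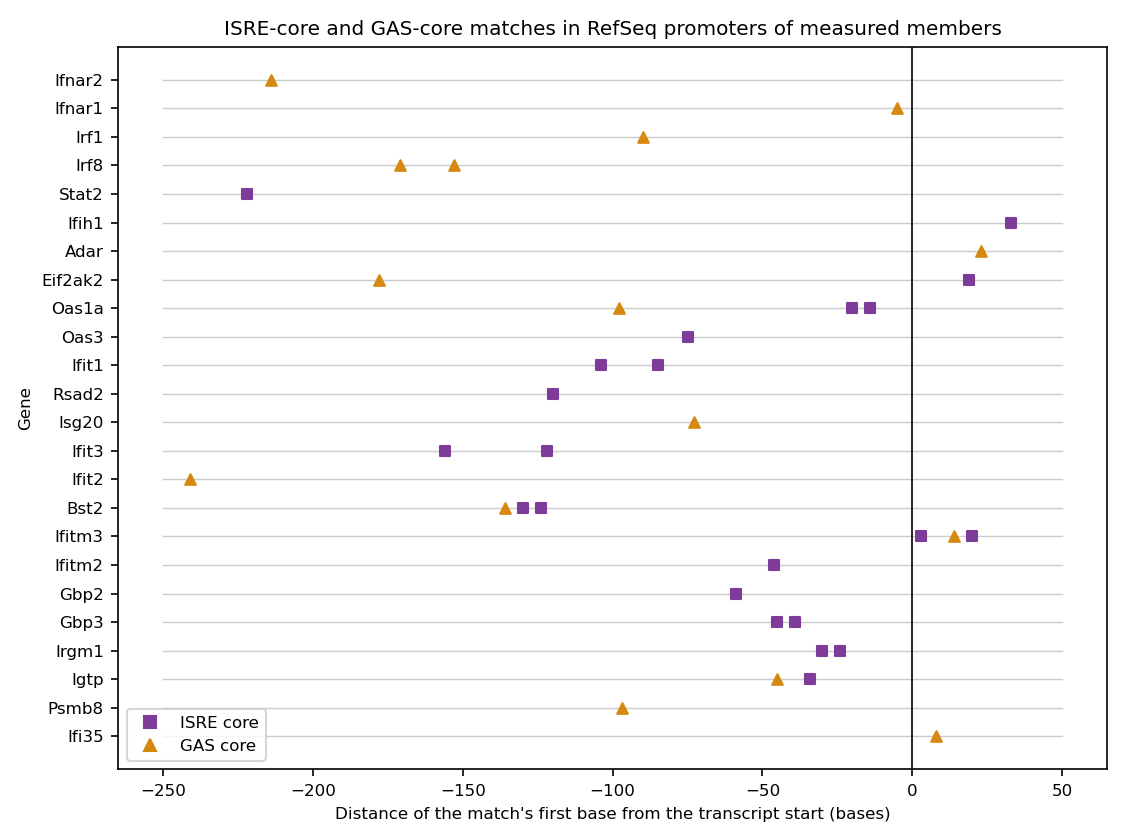
Positions of ISRE-core (squares) and GAS-core (triangles) matches in the RefSeq promoters of the measured members that hold either. The x axis is the distance in bases of a match's first base from the transcript start, and each line is 1 gene from 250 bases before to 50 after it. Gbp2, Gbp3, Oas1a, Ifitm2, Irgm1 and Igtp have ISRE-core matches that begin at −59 or nearer, before the start.

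The sorted cells gave clear signal for Kit, Slamf1 (CD150) and Cd34, at wild-type mean log2 levels of 8.41, 6.35 and 8.04 against array medians of 3.69 to 3.82. Cd48, of the same marker list, was brighter still, at 8.73 to 9.14 in wild type and 9.06 to 9.50 in TFIIA nc/nc. Cd3e, Cd3g, Cd4 and Cd8a, antigens of the lineage cocktail, lay below the array median on all 7 arrays, and Ly6a (Sca-1) had no probe set of its own. Ptprc (CD45), which all white blood cells carry and of which B220 in the cocktail is a form, was bright in both groups, at 8.98 to 9.80. Procr, another stem cell marker, differed by −0.77 (SE 0.29), Kit by −0.49 (SE 0.32) and Cd34 by −0.13 (SE 0.21) between the genotypes. Slamf1 and Cd48 were higher in TFIIA nc/nc, by 0.20 (SE 0.20) and 0.30 (SE 0.17). Of the 6 measured markers of this list 4 were lower, where 51.9% of all genes were, and groups overlapped for all 6. The relation of these markers to the members was not tested. Mecom, a stem cell transcription factor, also lay below the array median on all arrays. The arrays correlated pairwise at 0.966 to 0.991. Markers of sinusoidal endothelium set 3 arrays apart. For 16 such genes the mean log2 level reached 6.61 in the first TFIIA nc/nc replicate, 7.08 in the second and 6.81 in the first wild-type replicate, and stayed at 4.45 to 4.53 elsewhere. In bulk RNA, fewer cells that express a gene and less RNA per cell cannot be told apart.

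No interferon-stimulated gene passed the test, and most were measured at a lower mean in the TFIIA nc/nc stem cells. The difference, here always the TFIIA nc/nc mean less the wild-type mean in log2 units, was below 0 for 33 of 40 genes (82.5%), as it was for 51.9% of all 12393 genes. Its median was −0.21 over the 40 genes and −0.01 over all genes. With limma and Benjamini-Hochberg adjustment over all genes, 0 of the 40 had an adjusted p under 0.05, where 0.00807% of all genes did (Galc alone), and their adjusted p ranged from 0.927 to 0.988. At an unadjusted p under 0.05 there were 13 of the 40, all lower, against 4.65% of all genes in either direction, 2.53% lower and 2.12% higher. The 3 TFIIA nc/nc values lay wholly on one side of the 4 wild-type values for 10 of the 40 genes, 9 lower and 1 higher, against 6.30% of all genes, 3.07% lower and 3.23% higher. The list was named with earlier results of these arrays known, so these shares describe the members and are no independent support.

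Individual arrays weighed on these counts. With only the 4 arrays of low endothelial signal, which hold 1 TFIIA nc/nc sample, 33 of 40 genes were lower at a median of −0.27, and 2 had an unadjusted p under 0.05 (1.69% of all genes). The spread there comes from wild type alone, so the lone TFIIA nc/nc sample is assumed to vary like it. The 13 genes under 0.05 became 8 without TFIIA nc/nc replicate 1, where 2.86% of all genes were under 0.05, and 8 without wild-type replicate 4, where 5.73% were. The median became −0.35 without wild-type replicate 1. Groups that did not overlap numbered 17 without TFIIA nc/nc replicate 3 (12.9% of all genes) and 16 without wild-type replicate 3 (9.09% of all genes).

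**Figure D2:**
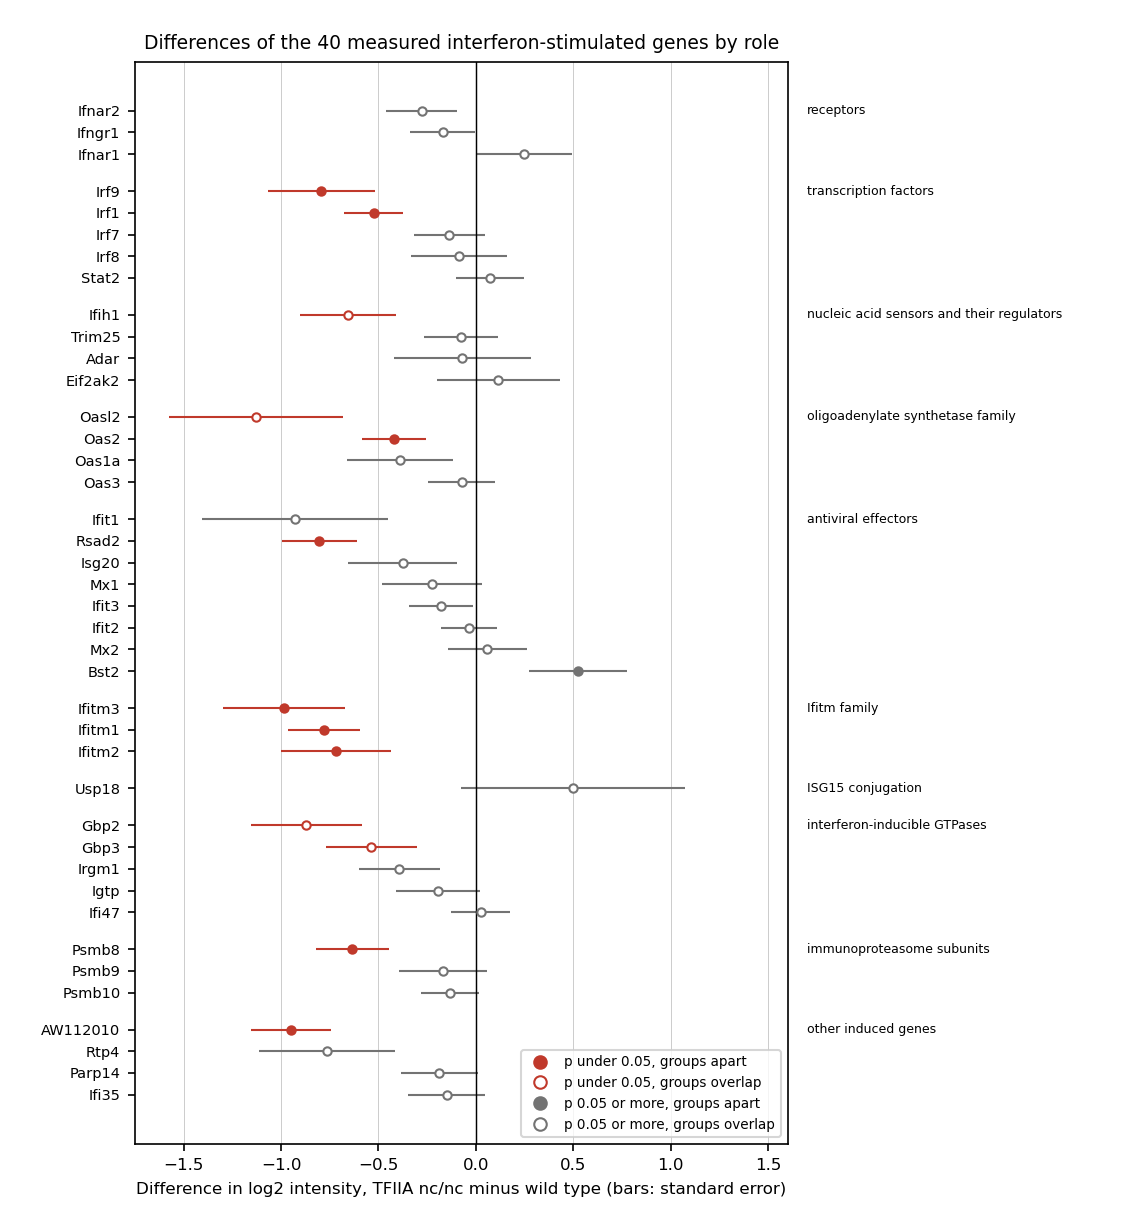
Difference in log2 intensity, TFIIA nc/nc (n = 3) minus wild type (n = 4), for each of the 40 measured genes, grouped by role, with bars for the standard error. Red marks an unadjusted p under 0.05 and filled points mark groups that do not overlap. All 3 Ifitm genes are red and filled, and Bst2, at 0.52, is the filled point on the other side of 0.

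Array values below are log2 intensities, given from replicate 1 onward in each group. The receptor chains were among the members with small differences. Ifnar1, a signalling chain of the type I receptor, read 4.99, 5.06 and 4.72 in TFIIA nc/nc and 4.02, 4.91, 4.72 and 5.05 in wild type. Ifnar2, its partner, read 5.56, 5.99 and 5.95 in TFIIA nc/nc and 5.99, 6.28, 5.83 and 6.34 in wild type. The groups overlapped for both, with wild-type replicate 1 the lowest array for Ifnar1 and TFIIA nc/nc replicate 1 the lowest for Ifnar2. Differences were 0.25 (SE 0.24) for Ifnar1 and −0.28 (SE 0.18) for Ifnar2. Ifngr1, the ligand-binding chain for interferon gamma, read 6.51, 6.72 and 6.95 in TFIIA nc/nc and 6.76, 6.76, 6.93 and 7.14 in wild type, again with overlap (difference −0.17, SE 0.17). Another Ifnar2 probe set differed by −0.42, with every TFIIA nc/nc array below every wild-type array (exact permutation p = 0.0571).

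Of the 5 transcription factors, Irf1 and Irf9 had groups that did not overlap. Irf1, which binds elements like the ISRE and is itself induced by interferon, read 6.21, 6.32 and 6.60 in TFIIA nc/nc and 6.73, 7.02, 6.92 and 6.92 in wild type. The wild-type arrays spanned only 0.28, and every one of them was above all TFIIA nc/nc arrays. Its means were 6.37 ± 0.20 against 6.90 ± 0.12 in wild type (SD, n = 3 and n = 4), 1.44-fold lower (difference −0.52, SE 0.15). Irf9, the DNA-binding partner of STAT2, read 4.74, 5.29 and 5.41 in TFIIA nc/nc and 5.45, 5.95, 5.76 and 6.60 in wild type. TFIIA nc/nc replicate 3 and wild-type replicate 1 were only 0.04 apart, so the groups barely parted (difference −0.79, SE 0.28). Irf7, which amplifies interferon production, read 3.12, 3.11 and 2.99 in TFIIA nc/nc and 3.2, 3.14, 2.88 and 3.61 in wild type, below the array median on every array (difference −0.14, SE 0.18). Stat2, also below the array median throughout, differed by 0.07 (SE 0.18), and its other, dimmer probe set by −0.24 (exact permutation p = 0.114). Irf8, a factor of myeloid cells, differed by −0.09 (SE 0.24), while its other probe set differed by 0.54 (exact permutation p = 0.286).

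Among sensors of foreign nucleic acid, Ifih1, the cytosolic sensor MDA5 of double-stranded RNA, read 5.15, 5.54 and 6.19 in TFIIA nc/nc and 6.12, 6.36, 6.06 and 6.59 in wild type. TFIIA nc/nc replicates 1 and 2 were the lowest arrays, while replicate 3 lay above wild-type replicates 1 and 3 (difference −0.66, SE 0.25). Eif2ak2, the kinase PKR that halts translation, read 7.02, 6.79 and 7.15 in TFIIA nc/nc and 7.33, 7.52, 6.32 and 6.31 in wild type. Its spread lay within the wild type, where replicates 1 and 2 stood above all other arrays and replicates 3 and 4 below them (difference 0.12, SE 0.31). Adar, which edits double-stranded RNA, had the reverse arrangement in wild type, at 4.02 and 4.22 in replicates 1 and 2 and 5.21 and 5.56 in replicates 3 and 4 (difference −0.07, SE 0.35). Trim25, a ubiquitin ligase that acts with RIG-I, read 8.49, 8.38 and 8.17 in TFIIA nc/nc and 8.62, 8.53, 7.97 and 8.58 in wild type. Wild-type replicate 3 was its lowest array and the other wild-type arrays lay above all TFIIA nc/nc arrays (difference −0.08, SE 0.19).

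The oligoadenylate synthetases make the messenger that activates RNase L in infected cells, and all 4 measured members were lower on average. Oas2 read 4.09, 3.71 and 4.10 in TFIIA nc/nc and 4.18, 4.57, 4.31 and 4.51 in wild type. Every TFIIA nc/nc array lay below every wild-type array, at signals close to the array median (difference −0.42, SE 0.17). Oasl2, a relative of the synthetases, read 1.85, 2.89 and 3.12 in TFIIA nc/nc and 3.06, 3.82, 3.24 and 4.87 in wild type. It had the largest difference of the 40 genes, −1.13 (SE 0.44), but TFIIA nc/nc replicate 3 lay above wild-type replicate 1 and 5 of its 7 values were below the array median. Oas1a read 6.51, 6.31 and 7.04 in TFIIA nc/nc and 6.53, 7.43, 6.70 and 7.39 in wild type, with wild-type replicates 1 and 3 within the TFIIA nc/nc range (difference −0.39, SE 0.27). Oas3, below the array median throughout, differed by −0.07 (SE 0.17).

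Of the 8 antiviral effectors, 6 were lower on average, and Rsad2 and Bst2 had groups that did not overlap. Rsad2, viperin, which makes a chain-terminating nucleotide analogue, read 5.0, 5.19 and 5.13 in TFIIA nc/nc and 6.01, 5.63, 5.65 and 6.33 in wild type. All TFIIA nc/nc arrays lay within 0.19 of each other and the nearest wild-type array was 0.45 higher. Its means were 5.10 ± 0.10 against 5.91 ± 0.33 in wild type (SD, n = 3 and n = 4), 1.75-fold lower, a difference of −0.80 with SE 0.19. The adjusted p by Benjamini-Hochberg in limma was 0.934, and 0.236 to 1.00 over the other settings. The other Rsad2 probe sets differed by −0.75, with groups apart (exact permutation p = 0.0571), and −0.35 (exact permutation p = 0.286). They were dim, at 2.78 to 3.83 and 2.12 to 3.31, mostly below the array medians. The smallest 2-sided p this exact permutation test can give with 3 against 4 arrays is 0.0571, the value for groups wholly apart.

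Ifit1, which binds viral RNA lacking host cap modification, read 2.75, 3.04 and 3.39 in TFIIA nc/nc and 3.87, 4.14, 2.73 and 5.23 in wild type. Wild-type replicate 4 was far above the rest and wild-type replicate 3 was the lowest of all arrays, so the difference of −0.93 (SE 0.48) came with overlapping groups. Of the 7 Ifit1 values, 4 were below the array median. Its relatives Ifit2 and Ifit3 differed by −0.04 (SE 0.14) and −0.18 (SE 0.16), and Ifit3 lay below the array median on all 7 arrays. Mx1 and Mx2, antiviral GTPases, lay below the array median on every array and differed by −0.23 (SE 0.26) and 0.06 (SE 0.20). Isg20, an exonuclease, differed by −0.38 (SE 0.28).

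Bst2, tetherin, which holds budding virions at the cell surface and is also a marker of plasmacytoid dendritic cells, was the member whose groups parted in the other direction. It read 6.07, 5.64 and 5.74 in TFIIA nc/nc and 5.63, 5.47, 4.59 and 5.46 in wild type. The closest arrays of the groups were 5.64 and 5.63, so the separation was narrower than the spread within either group, and wild-type replicate 3, at 4.59, lay well below the other wild-type arrays (difference 0.52, SE 0.25).

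The Ifitm genes encode small membrane proteins that hinder virus entry, and Ifitm1 is also abundant in many stem cells. All 3 measured members were lower in every TFIIA nc/nc array than in any wild-type array. Ifitm1 read 9.35, 9.47 and 9.81 in TFIIA nc/nc and 10.02, 10.55, 10.50 and 10.23 in wild type. Its means were 9.54 ± 0.24 against 10.33 ± 0.25 in wild type (SD, n = 3 and n = 4), 1.72-fold lower (difference −0.78, SE 0.18). Ifitm3 read 7.75, 7.83 and 7.94 in TFIIA nc/nc and 8.04, 8.53, 9.31 and 9.42 in wild type. The TFIIA nc/nc arrays were close together, while wild-type replicates 3 and 4 stood well above replicates 1 and 2 (difference −0.98, SE 0.31). Ifitm2 read 7.46, 7.31 and 7.30 in TFIIA nc/nc and 7.68, 7.58, 8.85 and 8.21 in wild type, with the same order of single and pooled wild-type samples (difference −0.72, SE 0.28). With pooled samples only, which leaves wild-type replicates 3 and 4, the Ifitm3 difference was −1.53 and its adjusted p 0.0545 in limma, the smallest of any member in any setting tried.

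Ifitm1, Ifitm2 and Ifitm3 lie side by side on chromosome 7, with Ifitm1 in the middle and no other protein-coding gene among them in the gene order of GRCm38.p6. Of the 7 other measured genes within 5 protein-coding genes of them, Sigirr, an inhibitor of interleukin-1 receptor signalling, differed by −0.48 (SE 0.22) and Psmd13, a proteasome subunit, by 0.28 (SE 0.20). The others, the dim Ifitm6 included, differed by −0.13 to 0.14. Groups overlapped for all 7. The Ifitm genes resemble each other in sequence, and whether their probes share signal was not tested.

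ISG15 is a ubiquitin-like protein that is attached to other proteins, and USP18 removes it and restrains the type I receptor. The probe set shared by Isg15 and Gm9706 averaged 4.09 in TFIIA nc/nc and 4.17 in wild type, a difference of −0.08 (exact permutation p = 0.8). Usp18 read 3.48, 4.24 and 4.54 in TFIIA nc/nc and 2.70, 4.32, 2.41 and 4.90 in wild type. Wild-type replicates 1 and 3 were the lowest arrays and wild-type replicates 2 and 4 among the highest, so its mean was higher in TFIIA nc/nc by 0.50 (SE 0.58) with wide overlap.

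The interferon-inducible GTPases attack the vacuoles of intracellular pathogens. Gbp2 read 4.12, 4.07 and 4.54 in TFIIA nc/nc and 4.40, 5.72, 5.01 and 5.31 in wild type, with TFIIA nc/nc replicate 3 above wild-type replicate 1 (difference −0.87, SE 0.29). Its second probe set differed by −1.10 with groups that did not overlap (exact permutation p = 0.0571). Gbp3 read 4.26, 4.26 and 4.52 in TFIIA nc/nc and 4.92, 4.98, 4.28 and 5.35 in wild type, where wild-type replicate 3 fell among the TFIIA nc/nc arrays (difference −0.54, SE 0.23). These guanylate-binding proteins and the immunity-related GTPases that follow belong to separate families. Irgm1 read 5.69, 6.0 and 6.26 in TFIIA nc/nc and 6.14, 6.34, 6.21 and 6.82 in wild type, where only TFIIA nc/nc replicate 3 lay within the wild-type range (difference −0.39, SE 0.21). Igtp differed by −0.20 (SE 0.22). Ifi47 was level across all 7 arrays, between 8.54 and 8.99 (difference 0.02, SE 0.15).

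Psmb8, Psmb9 and Psmb10 are the catalytic subunits that replace their constitutive counterparts in the immunoproteasome. Psmb8 read 7.28, 7.37 and 7.58 in TFIIA nc/nc and 7.84, 7.80, 8.44 and 8.08 in wild type. The TFIIA nc/nc arrays all lay below the lowest wild-type array, by 0.23 or more. Its means were 7.41 ± 0.15 against 8.04 ± 0.29 in wild type (SD, n = 3 and n = 4), 1.55-fold lower (difference −0.63, SE 0.19). Psmb9 read 6.45, 6.51 and 6.69 in TFIIA nc/nc and 6.09, 6.82, 6.91 and 7.05 in wild type, where wild-type replicate 1 was the lowest array of all (difference −0.17, SE 0.23). Psmb10 read 8.06, 7.92 and 8.16 in TFIIA nc/nc and 8.0, 8.31, 8.06 and 8.34 in wild type, with overlapping groups (difference −0.13, SE 0.15). Psmb8 and Psmb9 lie on chromosome 17 with 1 protein-coding gene between them, in the class II region of the major histocompatibility complex. Around them Tap1 and Tap2, the transporter subunits that carry peptides to class I molecules, differed by −0.33 (SE 0.17) and −0.21 (SE 0.19), H2-DMa, a class II peptide exchange factor, by −0.73 (SE 0.17, groups apart), and Brd2, a reader of acetylated chromatin, by 0.05 (SE 0.21). The 5 other measured genes near them differed by −0.22 to 0.03, and H2-DMb2, dim and at −0.22, had groups apart.

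Of the remaining induced genes, AW112010 had the smallest p of the 40. It read 3.31, 3.75 and 3.84 in TFIIA nc/nc and 4.75, 4.87, 4.18 and 4.54 in wild type. Every TFIIA nc/nc array lay at least 0.34 below the lowest wild-type array (difference −0.95, SE 0.21). The adjusted p by Benjamini-Hochberg in limma was 0.927, and 0.289 to 1.00 over the other settings. Its level was low, with 2 of the 7 values below the array median. Rtp4, a receptor transporter induced by interferon, read 6.15, 5.79 and 6.34 in TFIIA nc/nc and 6.90, 6.95, 5.92 and 7.66 in wild type, with wild-type replicate 3 between TFIIA nc/nc replicates 1 and 2 (difference −0.76, SE 0.35). Its other probe set differed by −0.30 (exact permutation p = 0.0571). Parp14, an ADP-ribosyltransferase, read 5.48, 5.37 and 5.66 in TFIIA nc/nc and 5.41, 6.10, 5.43 and 5.83 in wild type, with overlap (difference −0.19, SE 0.20). Ifi35 differed by −0.15 (SE 0.20).

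**Figure D3:**
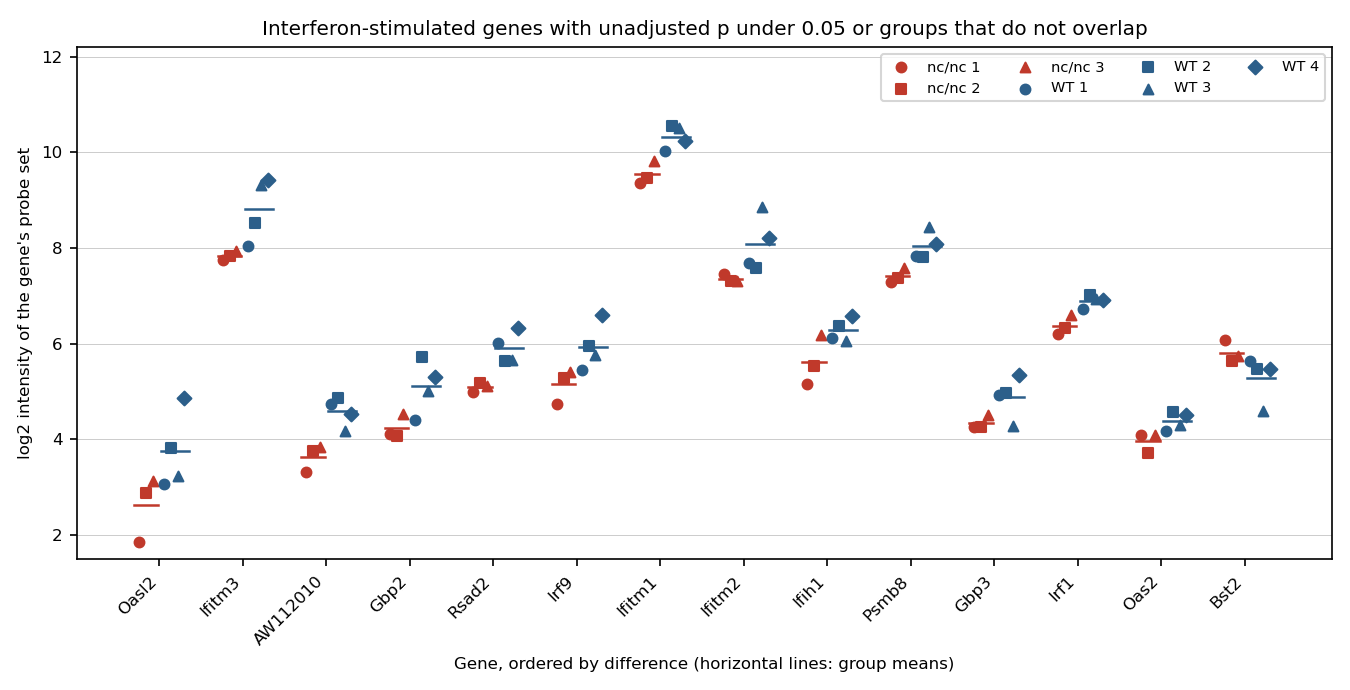
Log2 intensity on each of the 7 arrays for the 14 members with an unadjusted p under 0.05 or with groups that do not overlap. Red symbols are TFIIA nc/nc and blue symbols wild type, the symbol gives the replicate, and lines mark group means. Rsad2, Ifitm1, Psmb8, Irf1 and AW112010 show the clearest gaps, while wild-type replicate 3 or 1 falls to the TFIIA nc/nc level for Gbp2, Gbp3, Oasl2 and Ifih1.

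Across arrays the list did not split cleanly by genotype. The median over the 40 genes of the level minus its wild-type mean came to −0.28, −0.26 and −0.20 for replicates 1, 2 and 3 of TFIIA nc/nc. In wild type it was −0.21, 0.12, −0.19 and 0.21 in replicates 1 to 4. Wild-type replicates 1 and 3 thus lay at the TFIIA nc/nc level and replicates 2 and 4 above it. Wild-type replicate 4 held the highest value for 19 of the 40 genes (47.5%, against 15.1% of all genes) and replicate 2 for 10 (25%, against 11.8%). TFIIA nc/nc replicate 1 held the lowest value for 13 (32.5%, against 13.6% of all genes). All 3 TFIIA nc/nc arrays were below the wild-type mean for 25 genes, and for 23.7% of all genes.

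**Figure D4:**
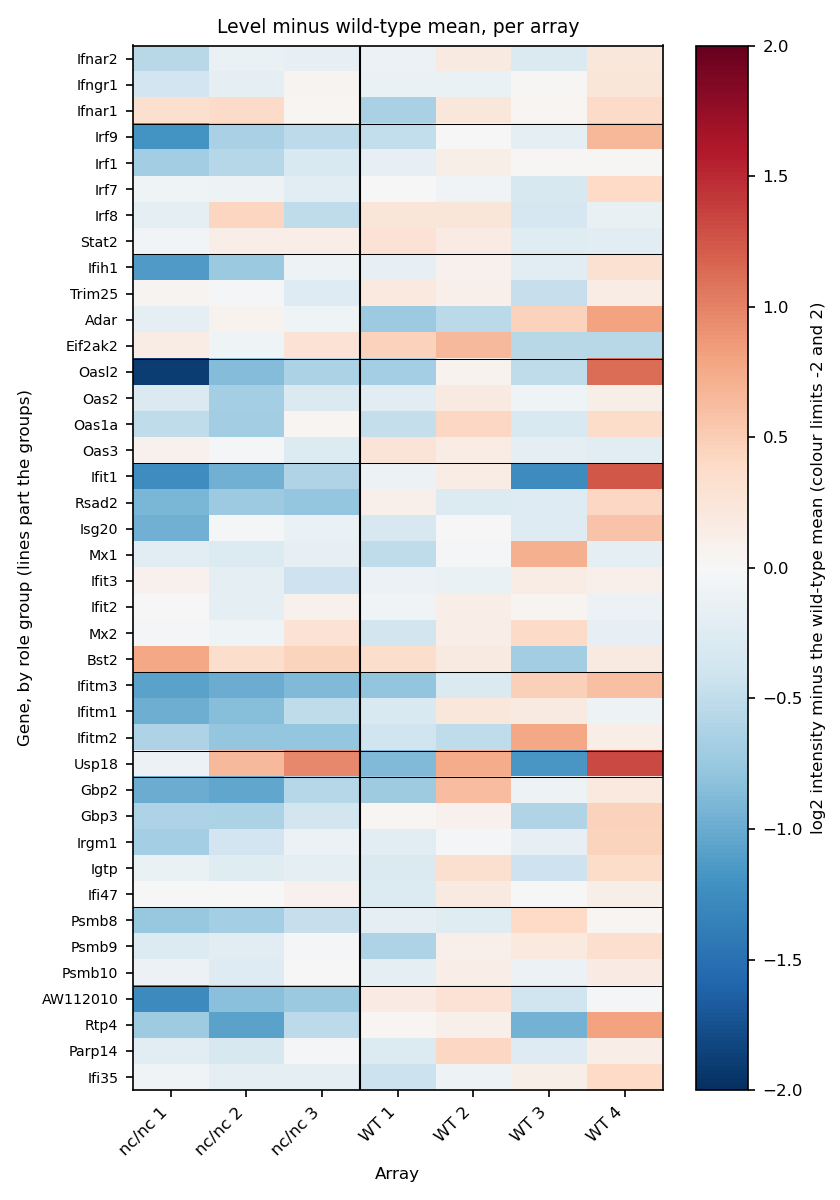
Log2 level minus the wild-type mean for the 40 members (rows, parted by role) on the 7 arrays (columns), with colour limits of −2 and 2. The columns of wild-type replicates 1 and 3 are mostly pale blue like those of TFIIA nc/nc, and wild-type replicate 4 is red for Usp18, Ifit1, Oasl2, Rtp4 and Irf9.

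Ifit1, Oasl2, Rtp4, Usp18, Irf9 and Gbp3 were among the 19 members with their highest value in wild-type replicate 4. Among the 23 members with a mean log2 level of at least 5, the range over the 4 wild-type arrays was widest for Rtp4 (1.74), Ifitm3 (1.39), Ifitm2 (1.27), Eif2ak2 (1.21) and Irf9 (1.15). It was narrowest for Ifit2 (0.25), Irf1 (0.28), Psmb10 (0.34), Ifngr1 (0.38) and Ifi47 (0.45). The median range was 0.69 for these members and 0.53 for all 5350 genes at that level. Wild-type samples of 1 embryo and of pooled embryos lay apart for 14 of the 40 members (35%) and for 39.7% of all genes, so the members did so about as often as other genes. Among the 14, Adar averaged 4.12 in the samples of 1 embryo and 5.38 in the pools, Eif2ak2 7.43 and 6.32, and Ifitm3 8.28 and 9.36. The Y-linked minus Xist level of these arrays also differed, at 0.52 and 1.21 in the samples of 1 embryo and −7.11 and −4.83 in the pools, so embryo number and sex cannot be told apart there. In TFIIA nc/nc it was −9.85, −6.93 and −4.51, so the genotypes differed in it as well. With this level as a covariate, the median over the 40 genes was −0.34 and 31 were lower, and 9 had an unadjusted p under 0.05 where 9.06% of all genes did. These 9 were not all lower, as they included Bst2, which was higher in every setting. Eif2ak2 was also among them. Irf1 combined a narrow wild-type range with a gap to the TFIIA nc/nc arrays, whereas for Ifitm3 and Irf9 the wild-type range exceeded the difference between the genotypes.

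The differences were also read by promoter. Of the 15 members with the ISRE core, 12 were lower in TFIIA nc/nc (all genes 51.9%), 6 had an unadjusted p under 0.05 (all genes 4.65%), and the median difference was −0.39. Of the 19 with a promoter and no ISRE core, 17 were lower, 6 had an unadjusted p under 0.05, and the median was −0.17. The difference between these medians was not tested.

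Other genes of the pathway were taken from lists chosen by name. No interferon ligand gave more than a dim signal, and all 8 measured lay below the array median on every array. Ifnb1, interferon beta, differed by 0.45 (SE 0.19), Ifna1 by −0.34 (SE 0.16) and Ifna2 by 0.24 (SE 0.19). Of 6 receptor chains, kinases and STATs, 3 were lower and 3 higher, with no unadjusted p under 0.05. Stat3 differed by −0.46 (SE 0.26), Ifngr2, the signalling chain for interferon gamma, by −0.42 (SE 0.25) and the kinase Jak2 by 0.08 (SE 0.13). With the mean of all probe sets the difference of Ifngr2 was −0.1758. By the most variable probe set (interquartile range) the difference of Jak2 was 0.1406.

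Negative regulators were evenly divided, with 5 of 10 lower. Socs3, an inhibitor of JAK kinases, differed by 0.62 (SE 0.22), Irf2, which competes with Irf1 for its sites, by −0.39 (SE 0.15) with groups apart, and the phosphatase Ptpn11 by 0.27 (SE 0.14) with groups apart. With the mean of all probe sets of a gene, the difference of Socs3 was 0.2173 and the difference of Ptpn11 0.0833. Neither had an unadjusted p under 0.05 there, and in the reported fit only Socs3 of the 2 did. Of 14 genes of upstream sensing, 13 were lower at a median of −0.09. Samhd1, which depletes nucleotides, differed by −0.41 (SE 0.16) with groups apart, Dhx58, the sensor LGP2, by −0.49 (SE 0.27), and Sting1, the adaptor of cytosolic DNA sensing, by −0.42 (SE 0.27). By the most variable probe set (interquartile range) the difference of Samhd1 was −0.0965 and the difference of Dhx58 −0.1598, and with the mean of all probe sets −0.1302 and −0.1091.

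Further interferon-induced genes outside the list were mostly measured lower as well. Of 40 measured, 30 were lower at a median of −0.22, 5 had an unadjusted p under 0.05, all lower (2.53% of all genes), and 7 had groups that did not overlap, all lower (3.07% of all genes). Il15, a cytokine for lymphocytes that stromal and myeloid cells present, read 4.97, 5.17 and 5.43 in TFIIA nc/nc and 6.10, 6.04, 6.46 and 5.96 in wild type. Every TFIIA nc/nc array was below every wild-type array (difference −0.95, SE 0.18). Its adjusted p by Benjamini-Hochberg in limma was 0.614, and 0.196 to 1.00 over the other settings. Cmpk2, a mitochondrial nucleotide kinase encoded beside Rsad2, differed by −0.93 (SE 0.26) and Casp1, the inflammatory caspase, by −0.58 (SE 0.19), both with groups apart. With the mean of all probe sets the difference of Cmpk2 was −0.5252. Of 9 genes of class I presentation 7 were lower at a median of −0.35. H2-K1, a class I heavy chain, differed by −0.74 (SE 0.34), Psme1, an activator of the immunoproteasome, by −0.49 (SE 0.25), and Tap1 is given above. With the mean of all probe sets the difference of Tap1 was −0.0536. In all, 61 of 87 pathway genes were lower (70.1%, against 51.9% of all genes), 0 of 87 passed with limma after Benjamini-Hochberg adjustment, and 7 lower and 2 higher had an unadjusted p under 0.05, against 2.53% and 2.12% of all genes.

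Marker lists of other cells that a fetal liver sort could hold were set beside the members. Granulocyte and monocyte genes were lower in TFIIA nc/nc for 9 of 9, where 51.9% of all genes were lower. Their mean log2 level was 4.50 to 4.52 in TFIIA nc/nc against 4.66 to 5.02 in wild type. Prtn3 and Lyz2 differed most, by −1.01 (SE 0.30) and −0.82 (SE 0.25), while Elane, Ctsg, S100a8, S100a9 and Itgam lay below the array median on all 7 arrays. The mean of 14 macrophage genes was 3.60 to 5.09 in TFIIA nc/nc and 2.86 to 4.30 in wild type, with 12 of 14 higher. Lgmn differed by 1.83 (SE 0.40) with groups apart, and Vcam1 by 2.00 (SE 0.65) and Hmox1 by 1.14 (SE 0.47) with overlap. Vcam1 read 5.40 in wild-type replicate 1, an array of high endothelial signal, and 2.07 to 3.18 in the other wild-type arrays. Adgre1 differed by 0.04 (SE 0.41), and C1qa, C1qb and C1qc by 0.43 (SE 0.64), 0.31 (SE 0.43) and 0.21 (SE 0.57). Cd68 was lower, by −0.53 (SE 0.46), as was Cd163, which lay below the array median on every array. Lymphoid and dendritic markers averaged 3.78 to 3.93 and 3.67 to 4.09, and Cd79a, Il7r, Rag1, Rag2 and Cd7 were below the array median throughout. Of that list Flt3, also a receptor of multipotent progenitors, differed by −0.77 (SE 0.23) with groups apart, at 5.40 to 5.75 in TFIIA nc/nc and 5.99 to 6.90 in wild type, and Tcf4 by 0.09 (SE 0.25). Hepatoblast and hepatocyte genes were higher for 9 of 11, and 3 higher and 1 lower had an unadjusted p under 0.05 (2.12% and 2.53% of all genes). Their mean level was 3.75 to 5.17 in TFIIA nc/nc and 3.62 to 4.40 in wild type. Afp differed by 2.55 (SE 1.0), Apoa1 by 0.94 (SE 0.29) and Ahsg, dim but with groups apart, by 0.47 (SE 0.15). Erythroid genes (4 of 6 lower) and megakaryocyte genes (2 of 5 lower) had no unadjusted p under 0.05 in limma, and their groups overlapped. Endothelial markers were higher in TFIIA nc/nc for 12 of 16, through replicates 1 and 2. The part of these cells in the values of the members was not tested beyond the settings without those arrays and with the endothelial mean as a covariate. With that covariate 30 of 40 members were lower, 8 had an unadjusted p under 0.05 (4.71% of all genes), and the median was −0.20.

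**Figure D5:**
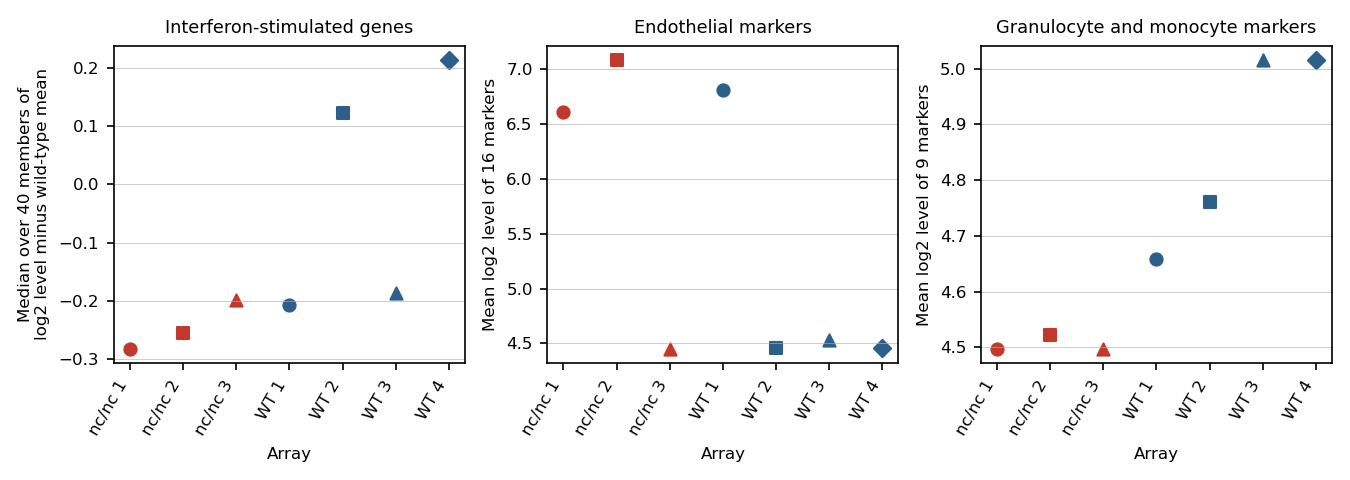
Array summaries for TFIIA nc/nc (red) and wild type (blue), 1 symbol per array. Left, the median over the 40 members of the log2 level minus its wild-type mean. Middle and right, the mean log2 level of 16 endothelial and of 9 granulocyte and monocyte markers. Wild-type replicates 1 and 3 sit at the TFIIA nc/nc level on the left, 3 arrays stand high in the middle, and all wild-type arrays lie above all TFIIA nc/nc arrays on the right.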

How the data were processed

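RNA was amplified from the 3′ end and hybridised to 1 array per sample, per the labels' protocols. The deposited values are intensities per probe set, made by the authors in Affymetrix Expression Console with RMA, as the submitters' processing notes state without versions. RMA subtracts background, equalises the arrays' distributions and summarises probes, and it compresses small signals. The values are linear, and log2 was taken with no pseudocount. Detection calls and scan dates were not used here, so array batches were not tested, and the number of arrays limits the precision.

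Of 22690 probe sets, 64 controls were left out. The platform annotation named a single gene for 20380 probe sets, several for 691 and none for 1555. Of the resulting 12393 genes, 12369 were matched by Entrez identifier to RefSeq (GRCm38.p6) for current symbols.

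In R 4.3.3, limma 3.58.1 (lmFit, eBayes) compared the genotypes on 1 probe set per gene, without covariates, with 2-sided p-values adjusted by Benjamini-Hochberg over 12393 genes at a threshold of 0.05. The fit was tested on simulated data. For other probe sets, the difference in means was tested 2-sided by exact permutation over the 35 assignments of the arrays. Of 10 such probe sets of 8 members, 7 had the same sign of difference as the one used and 3 the opposite. Values are mean ± SD or difference with its standard error (SE). Members, lists and tests were chosen with earlier results of these data known. Members with an unadjusted p under 0.05 or with groups that do not overlap, and up to 3 of smallest p in each role group, are given array by array. Adar, and the genes near Ifitm and Psmb8, were added after values were seen. In each pathway list the 3 genes of smallest p were named.

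Alternatives covered the probe set, filters, normalization, a pseudocount of 16, moderation, array weights, embryos pooled, endothelial signal, the Y-linked minus Xist level, a block for replicate number, an adjusted p of 0.1 and each array left out. A spread prior over all probe sets was added after seeing the data. Motifs were searched in Python 3.11.15. Figures were drawn with matplotlib 3.10.9.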

Additional observations from a re-analysis of the deposited data

Results flagged for a closer look

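Within the 4 wild-type arrays, 4 of 68 sets of values had an array far from the others by Dixon's test, a share near the 5% that chance gives. Wild-type replicate 3 was low for Trim25, at 7.97 against 8.53 to 8.62. It was low for Bst2, at 4.59 against 5.46 to 5.63, and for Jak2, at 7.21 against 7.32 to 7.34. Wild-type replicate 1 was high for the mean of the endothelial markers, at 6.81 against 4.46 to 4.53.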

How the results depend on the processing

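No member passed the threshold in any of the 24 alternative settings, nor at an adjusted p under 0.1 in the reported fit, and 41 of the 46 named genes kept the sign of their difference throughout. Over those settings 2 to 16 members had an unadjusted p under 0.05, while 1.69% to 11.8% of all genes did, and without moderation it was 6. All genes past the threshold numbered 0 above the median level, with the log2 6 filter and without moderation. They numbered 2 with the number of embryos (Galc and Lgmn) or the Y-linked minus Xist level (Galc and Slc40a1) as a covariate and with the low endothelial arrays (Galc and Hbb-y), and 3 with pooled embryos only (Galc, Vcam1 and Wdfy1). Leaving out 1 array gave 1 to 3, with 3 without wild-type replicate 1 (Galc, Vcam1 and Clec1b). The log2 6 filter tested 16 members, of which 14 were lower at a median of −0.3913 and 5 had groups apart. Of all genes under that filter 41.8% were lower, at a median of 0.0458, and 8.99% had groups apart. With pooled embryos only the median was −0.4249 and 18 groups did not overlap (28.6% of all genes), and with the low endothelial arrays 17 (43.7%). Leaving out 1 array gave 10 to 17, where 9.09% to 13.5% of all genes had groups apart. Smaller groups part more often.

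Same-numbered samples deviated from their group means with correlations of 0.382, −0.194 and 0.106 over genes, so the numbers were not taken to pair the samples. In a fit with the replicate block, wild-type replicate 4 has no partner and drops out of the difference. There 34 members were lower at a median of −0.1654 (52.3% of all genes lower). An unadjusted p under 0.05 was reached by 10, Bst2, which was higher, among them (6.36% of all genes), and 1 gene passed.

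The difference of Eif2ak2 turned below 0 with array weights (−0.0858) and the replicate block (−0.0703), and ran from −0.0703 to 0.3325 with 1 array left out. The difference of Trim25 turned above 0 with the Y-linked minus Xist level (0.0571) and pooled embryos (0.0734), and ran from −0.2286 to 0.009 with 1 array left out. The difference of Psmb9 was 0.0504 with the endothelial covariate. With the low endothelial arrays the difference of Ifnar1 was −0.1728 and the difference of Ifngr1 0.0093. The cause was not tested.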
